A study of Mus musculus with 6 samples.

Results

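The genes described here are 5 genes of mouse chromosome 19, Cyp2c55, A1cf, Pyroxd2, Slc1a1 and 4933413C19Rik, whose read counts were higher in some or all of the testis libraries labelled as Msl3 conditional knockouts (cKO) than in the wild-type (WT) libraries. They were picked for that difference from the counts of reads on the strand opposite to the gene, which stand for RNA of the gene's strand. For Slc1a1 the reads on its own strand, called RNA of the other strand below, were also used. The differences of the 5 genes between the groups are therefore given as a description and not as a test. They are 5 of 692 genes of this chromosome, and of 21902 genes in all, that passed the filter on low counts. Total RNA came from whole testes of male mice at postnatal day 45, 3 labelled MSL3 WT and 3 labelled MSL3 cKO. All 6 mice carry the strain label Msl3em1Forni/C57BL/6J, and the cKO mice are described as having a floxed Msl3 allele, one in which recognition sites allow a recombinase to remove part of the gene. The recombinase line, and so the cells in which a deletion would occur, is not given in the sources used here. The labels number the mice as biological replicates, which is how they are named below.

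The 5 genes have different known roles. Cyp2c55 encodes a cytochrome P450 monooxygenase of the CYP2C subfamily, whose members oxidise drugs and fatty acids such as arachidonic acid. It is best known from intestine, kidney and induced liver, where the nuclear receptors CAR and PXR raise its transcription. A1cf encodes the APOBEC1 complementation factor, an RNA-binding protein that docks the cytidine deaminase APOBEC1 on the Apob transcript for C-to-U editing in intestine and liver. Pyroxd2 encodes a mitochondrial protein with a pyridine nucleotide-disulphide oxidoreductase domain. Slc1a1 encodes EAAC1 (EAAT3), a sodium-dependent carrier of glutamate, aspartate and cysteine, and cysteine taken up this way feeds glutathione synthesis. 4933413C19Rik is annotated as a non-coding RNA of the sense intronic class, and no role is stated for it in the annotation.

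In the GENCODE M21 annotation (GRCm38, the same assembly as mm10) the 5 genes lie in the order 4933413C19Rik, Slc1a1, A1cf, Cyp2c55 and Pyroxd2. The non-coding gene (ENSMUSG00000089952) lies on the minus strand at chr19:28580533-28583294, within the span of Glis3 on the same strand and with 0 exon bases in common with it. Slc1a1 (ENSMUSG00000024935) follows on the plus strand at chr19:28835049-28913960, A1cf (ENSMUSG00000052595) on the plus strand at chr19:31868764-31948995 and Cyp2c55 (ENSMUSG00000025002) on the plus strand at chr19:39007019-39042693. Pyroxd2 (ENSMUSG00000060224) is the last, on the minus strand at chr19:42725858-42752775. The whole stretch from the first to the last gene covers 14.2 Mb. No tested gene lies between 4933413C19Rik and Slc1a1, which are 0.252 Mb apart. The next gaps are 2.95 Mb with 24 tested genes, 7.06 Mb with 58 and 3.68 Mb with 43, so A1cf, Cyp2c55 and Pyroxd2 are not neighbours of each other.

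The sequences upstream of A1cf, Cyp2c55 and Pyroxd2 are shown because these 3 genes were high in the same pair of libraries. They are taken from RefSeq (GRCm38.p6), which matched 4 of the 5 genes, and run 5′ to 3′ on the strand of the gene. Each ends at the base before the annotated start. For A1cf the 201 bases before the GENCODE start are shown, because the last 49 bases of the 250-base RefSeq window lie within the GENCODE gene. Capitals mark matches to the motifs searched. The windows are chr19:31868563-31868763 for A1cf, chr19:39006769-39007018 for Cyp2c55 and chr19:42752776-42753025 for Pyroxd2.
A1cf: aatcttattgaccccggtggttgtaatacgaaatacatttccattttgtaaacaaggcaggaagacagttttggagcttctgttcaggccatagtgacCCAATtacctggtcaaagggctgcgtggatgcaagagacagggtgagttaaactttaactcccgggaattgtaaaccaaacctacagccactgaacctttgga
Cyp2c55: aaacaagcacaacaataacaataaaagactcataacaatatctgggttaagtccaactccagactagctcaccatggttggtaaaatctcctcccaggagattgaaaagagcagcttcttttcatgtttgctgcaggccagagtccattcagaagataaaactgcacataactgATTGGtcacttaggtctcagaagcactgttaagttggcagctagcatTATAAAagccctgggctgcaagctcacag
Pyroxd2: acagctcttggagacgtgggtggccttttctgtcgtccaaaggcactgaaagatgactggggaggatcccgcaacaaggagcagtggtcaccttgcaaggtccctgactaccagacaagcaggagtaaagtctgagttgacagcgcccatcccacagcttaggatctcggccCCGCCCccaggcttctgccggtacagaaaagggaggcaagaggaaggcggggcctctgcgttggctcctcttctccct
In all, 6 motifs were searched on both strands of the 250 bases before each RefSeq start, and the matches in these genes do not overlap each other. The TATA box letters TATAAA stand 29 to 24 bases before the start of Cyp2c55, and 12.4% of all 32851 RefSeq windows of this length hold them. The CCAAT box letters CCAAT occur forward at A1cf, 152 to 148 bases before its RefSeq start. Between the sequence shown for A1cf and that start lie the 49 bases left out above. The letters occur in reverse 76 to 72 bases before the start of Cyp2c55, and in 33.9% of all windows. The GC box letters GGGCGG occur in reverse 78 to 73 bases before the start of Pyroxd2 and 103 to 98 before that of Slc1a1, and in 32.7% of all windows. None of the 4 windows holds the HNF4-type repeat CAAAGTCCA, found in 0.384% of all windows, a match to the HNF1 site, found in 0.0609%, or the CRE letters TGACGTCA, found in 1.55%. The windows differ in base composition. GC content is 42.4% with 0 CpG at Cyp2c55, 43.2% with 6 CpG at A1cf, 58.8% with 9 CpG at Pyroxd2 and 70.4% with 27 CpG at Slc1a1, against a median of 52.4% over all windows. No motif of the 6 was found in all 4 windows.

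The 6 libraries held 56991431 to 73766444 reads assigned to genes, of which the opposite-strand column used here held 96.0% to 96.2% of the reads in both strand columns. Every pair of replicates differed beyond sampling noise in a chi-square comparison of their counts. As a check of the labels, Msl3 had 942, 1226 and 990 reads in WT replicates 1 to 3 and 1170, 829 and 923 in cKO replicates 1 to 3. The groups overlapped, and edgeR's quasi-likelihood test gave an adjusted p of 0.551 for a log2 fold change of -0.12, so the counts over the whole gene do not set the libraries labelled cKO apart. WT and cKO below are the labels. Across the 21902 genes this test called 4 at an adjusted p under 0.05 (0.0183% of those tested), 2 of them higher in cKO (0.00913%), and all cKO-against-WT log2 fold changes and adjusted p-values below come from it. In whole tissue, a change in the number of cells that express a gene and a change in its RNA per cell cannot be told apart. CPM below are counts relative to library size on the usual scale, with library sizes scaled by the trimmed mean of M values (TMM).

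Cyp2c55, the P450 gene, had the largest difference of the 5. Its level was 0.221, 0.632 and 0.354 CPM in WT replicates 1 to 3, from 13, 41 and 22 reads. In the cKO libraries it was 10.7, 11.0 and 0.890 CPM in replicates 1 to 3, from 781, 614 and 52 reads. Replicates 1 and 2 of the cKO group thus stand far above the rest, at 26.6 and 27.3 times the WT mean, while replicate 3 is at 2.21 times that mean. The groups do not overlap, but the gap between cKO replicate 3 and the highest WT library is small: exact 95% Poisson limits, which cover counting error only, are 0.665 to 1.17 CPM for the former and 0.453 to 0.857 CPM for the latter. The group means were 0.402 ± 0.210 CPM (SD, n = 3) in WT and 7.52 ± 5.75 CPM (SD, n = 3) in cKO. The log2 fold change was 4.20 (SE 0.75). Per kb of exon, cKO replicates 1 and 2 reached 5.37 and 5.50 CPM.

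A1cf, the cofactor of Apob editing, was high in the same libraries. It stood at 2.18, 1.33 and 1.75 CPM in WT replicates 1 to 3 (128, 86 and 109 reads). In cKO replicates 1 to 3 it stood at 7.09, 7.93 and 2.76 CPM (517, 444 and 161 reads). The 2 high libraries are again cKO replicates 1 and 2, at 4.04 and 4.53 times the WT mean, and cKO replicate 3 lies above every WT library at 1.57 times that mean. The means were 1.75 ± 0.426 CPM (SD, n = 3) in WT and 5.93 ± 2.78 CPM (SD, n = 3) in cKO, a log2 fold change of 1.76 (SE 0.32). The groups do not overlap, but the gap between cKO replicate 3 and the highest WT library, replicate 1, is small. Their exact 95% Poisson limits, which cover counting error only, are 2.35 to 3.22 CPM and 1.82 to 2.59 CPM. Before any difference, A1cf was the most abundant of the 5 genes in WT per length of exon, at 0.465 CPM per kb, followed by Pyroxd2 at 0.233 and Cyp2c55 at 0.202. The SDs of Pyroxd2 and Cyp2c55 in WT overlap, so that order is not resolved.

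Pyroxd2, the mitochondrial oxidoreductase gene, had 0.936, 1.36 and 1.08 CPM in WT replicates 1 to 3, from 55, 88 and 67 reads. It had 4.72, 4.18 and 1.11 CPM in cKO replicates 1 to 3, from 344, 234 and 65 reads. Here cKO replicate 3 lies inside the WT range, at 0.991 times the WT mean, so the groups overlap, and the difference comes from cKO replicates 1 and 2, at 4.20 and 3.72 times that mean. The means were 1.12 ± 0.214 CPM (SD, n = 3) in WT and 3.34 ± 1.94 CPM (SD, n = 3) in cKO, and the log2 fold change was 1.57 (SE 0.40). In WT, A1cf, Pyroxd2 and Cyp2c55 stood at the 30.0, 24.4 and 11.7 percentiles of the levels of all tested genes.

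Slc1a1 and 4933413C19Rik, which lie next to each other, had another pattern: all 3 cKO libraries were above all 3 WT libraries, on few reads. The non-coding gene 4933413C19Rik had 1, 3 and 4 reads in WT replicates 1 to 3 and 37, 22 and 17 reads in cKO replicates 1 to 3. As levels these are 0.0170, 0.0462 and 0.0644 CPM in WT and 0.507, 0.393 and 0.291 CPM in cKO. Every cKO library is high, replicate 3 included. The summed rates differed by a ratio of 9.42, with an exact 95% interval of 4.55 to 22.6 that covers counting error only, from 8 reads in WT and 76 in cKO. The fitted log2 fold change was 3.17 (SE 0.45), and the means were 0.0425 ± 0.0239 CPM (SD, n = 3) in WT and 0.397 ± 0.108 CPM (SD, n = 3) in cKO.

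The carrier gene Slc1a1 had 8, 4 and 9 reads in WT replicates 1 to 3 and 13, 14 and 13 in cKO replicates 1 to 3. Its levels were 0.136, 0.0616 and 0.145 CPM in WT and 0.178, 0.250 and 0.223 CPM in cKO. The groups do not overlap, though cKO replicate 1 and WT replicate 3 are separated by only a few reads. The ratio of the summed rates was 1.89 (exact 95% interval 1.09 to 3.37, counting error only), from 21 reads in WT and 40 in cKO. The means were 0.114 ± 0.0457 CPM (SD, n = 3) in WT and 0.217 ± 0.0363 CPM (SD, n = 3) in cKO, with a log2 fold change of 0.91 (SE 0.40). Per kb of exon Slc1a1 was at 0.0138 CPM in WT and 0.0263 CPM in cKO. In WT it and 4933413C19Rik, at 0.0192 CPM per kb, were the lowest of the 5, and their order is not resolved because their libraries overlap.

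**Figure D1:**
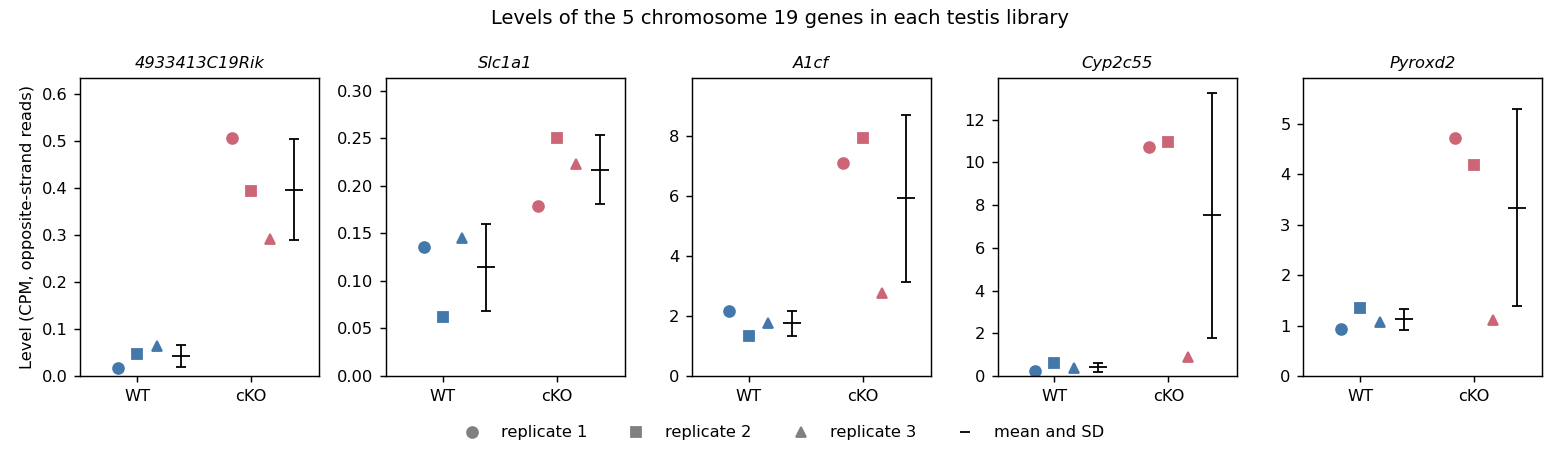
Level of each of the 5 genes (CPM, linear axis from 0, one scale per panel) in the 3 WT and 3 cKO libraries, with circles, squares and triangles for replicates 1, 2 and 3 and bars for the mean and SD of each group (n = 3). For Cyp2c55, A1cf and Pyroxd2 the high points are cKO replicates 1 and 2, at 10.7 and 11.0, 7.09 and 7.93, and 4.72 and 4.18 CPM, while for 4933413C19Rik and Slc1a1 all 3 cKO points lie above the WT points.

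All 5 genes passed the filter on low counts. 4933413C19Rik and Slc1a1 passed it only through the cKO libraries, in which they are high. Their reads in WT replicates 1 to 3 were 1, 3 and 4 and 8, 4 and 9, below the minimum count of 10. Of the 5, 0 were called at an adjusted p under 0.05 against 0.0183% of all tested genes, and all 5 had an unadjusted p under 0.05 with a higher level in cKO against 7.33% of all tested genes. The lowest adjusted p of the 5, from edgeR's quasi-likelihood test, was 0.0545, for 4933413C19Rik. DESeq2 called A1cf and Cyp2c55, but it also called many more of all tested genes than edgeR did, a number given in the last section. The groups did not overlap for 4 of the 5, against 10% of all tested genes that lay higher in cKO without overlap and 8.85% that lay lower. These shares and calls describe genes that were picked for the difference and carry no weight as tests.

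The strand of the RNA could be followed at each gene. At A1cf the other strand gave 3 to 6 reads per library, and at Cyp2c55 and Pyroxd2 it gave 0 or 1, so nearly all reads at these 3 genes came from the strand of the gene. At 4933413C19Rik the other strand carried most of the RNA in every library, with 93, 155 and 124 reads in WT replicates 1 to 3 and 110, 146 and 110 in cKO replicates 1 to 3. That RNA stood at 1.99 ± 0.403 CPM (SD, n = 3) in WT and 2.00 ± 0.560 CPM (SD, n = 3) in cKO, and the groups overlapped. The log2 fold change of this more abundant RNA was -0.01, against 3.17 for the RNA of the strand of 4933413C19Rik, and it was 0.23 when both strands were counted together. Glis3, in whose span the gene lies on the same strand, had 134, 121 and 143 reads in WT and 142, 146 and 137 in cKO, in replicate order. Its log2 fold change was 0.09, with an adjusted p of 0.829 from edgeR.

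At Slc1a1 the reads counted on both strands were higher in the cKO libraries. The other strand gave 14, 24 and 25 reads in WT replicates 1 to 3 and 58, 38 and 41 in cKO replicates 1 to 3, or 0.337 ± 0.0869 CPM (SD, n = 3) against 0.725 ± 0.0614 CPM (SD, n = 3). The groups do not overlap, and the log2 fold change was 1.10. These other-strand counts were also used to pick Slc1a1, so their difference carries no weight as a separate result. Slc1a1 shares 2631 exon bases with 4430402I18Rik, a gene on the opposite strand that had 15623 to 22297 reads, and 30.4% of the 75-base stretches of Slc1a1 exons also occur in it. 4430402I18Rik lay lower in cKO in every library than in any WT library, with a log2 fold change of -0.25 and an adjusted p of 0.276 from edgeR. The part of reads from 4430402I18Rik in the few reads of Slc1a1, on either strand, was not tested. In the unstranded counts, from which reads on more than 1 gene are dropped, Slc1a1 had 7, 3 and 7 reads in WT and 9, 14 and 14 in cKO, in replicate order. These are below the other-strand counts in every library, so many other-strand reads lay on bases shared with another gene. In the annotation used, 4430402I18Rik is the only gene that shares exon bases with Slc1a1, and it lies on that other strand.

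**Figure D2:**
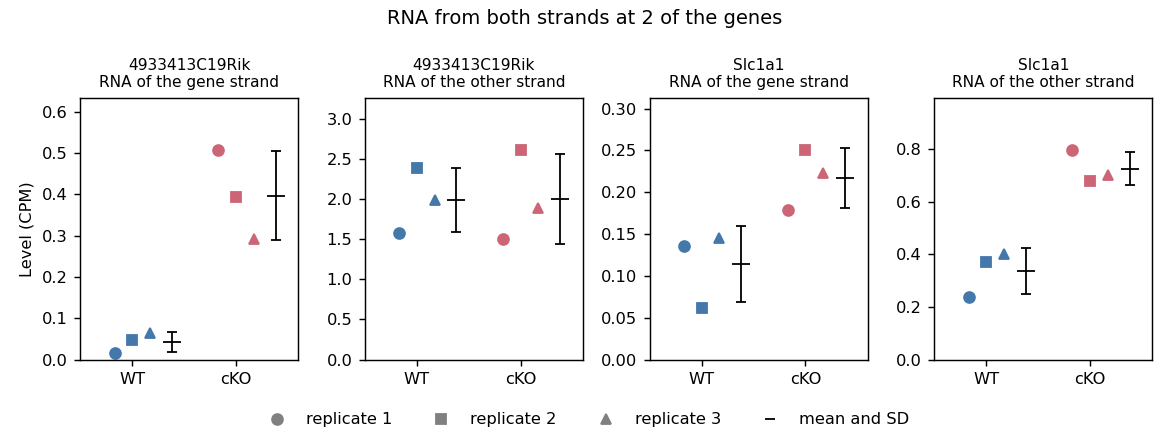
RNA of the strand of the gene and of the other strand at 4933413C19Rik and Slc1a1 (CPM, linear axes from 0), per library with the mean and SD of each group (n = 3); circles, squares and triangles are replicates 1, 2 and 3. The other strand of 4933413C19Rik has a mean of 1.99 CPM in WT and 2.00 CPM in cKO, whereas both strands of Slc1a1 are higher in all 3 cKO libraries. The other strand of Slc1a1 is that of 4430402I18Rik, which shares exon bases with it. Slc1a1 was picked from the counts of both strands.

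Little of the exon sequence of these genes occurs in other genes, Slc1a1 apart. Of the 75-base stretches of exons, the length of a read, A1cf, Cyp2c55 and 4933413C19Rik shared 0 with the exons of any other annotated gene, and Pyroxd2 shared 0.266%, with AC125458.1 on the other strand, which had 0 reads in each library. At 31 bases Cyp2c55 shared 3.41%, most of it with the neighbouring pseudogene Cyp2c52-ps. Reads of Cyp2c55 were therefore separable from those of the other Cyp2c genes at the read length used.

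How far the 5 genes stand out was read from each cKO library against the WT mean, on the log2(CPM + 0.5) scale, which understates the change of genes near or below 0.5 CPM. In cKO replicate 1, 5 of 21902 genes (0.0228%) were over 2-fold above the WT mean, namely Cyp2c55, A1cf, Pyroxd2, Gm7789 on chromosome 7 and Aqp5 on chromosome 15. In cKO replicate 2, 17 genes (0.0776%) were, and in replicate 3, 6 genes (0.0274%), the latter with none of the 5. Over both cKO replicates 1 and 2, 4 genes were past this limit, Cyp2c55, A1cf, Pyroxd2 and Gm7789, and Gm7789 alone was past it in all 3. Gm7789 and Aqp5 are named here after their values were seen. Of the other 687 tested genes of chromosome 19, those left after the 5 were picked for high counts, 0 were over 2-fold above the WT mean in any cKO library. In the other direction 0, 1 and 0 of them were over 2-fold below it in cKO replicates 1, 2 and 3.

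With a limit of 1.5-fold, added after the data had been seen, 4 of the 5 genes were above the WT mean in cKO replicate 1 and in replicate 2 (Cyp2c55, A1cf, Pyroxd2 and 4933413C19Rik), and 1, Cyp2c55, in replicate 3. Over all tested genes the shares past this limit were 0.0868%, 0.895% and 0.269% in replicates 1, 2 and 3. Among the other 687 genes of chromosome 19, 4, 8 and 1 genes were past it. The 125 other genes between the first and the last of the 5 included 1, 2 and 0 such genes. Most genes that lie between the 5 thus stood within that limit of the WT mean in the upward direction. Their median difference from the WT mean was -0.0093, -0.017 and 0.030 in cKO replicates 1 to 3 on that log2 scale, against -0.0024, 0.00078 and 0.0036 over all tested genes.

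In a count added after the data had been seen, differences in cKO replicates 1 and 2 went both ways on this chromosome. Above the WT mean by over 1.5-fold in both libraries were 10 of all tested genes (0.0457%), which include Cyp2c55, A1cf, Pyroxd2, 4933413C19Rik and 3 other genes of chromosome 19, Cyp2c29, AC132251.1 and AC140413.1. Below it by over 1.5-fold in both were 22 of all tested genes (0.1%), of which 4 lie on chromosome 19, named here after their values were seen. AC137605.3, between A1cf and Cyp2c55, was at -0.82, -1.12 and -0.09 in cKO replicates 1 to 3 on the log2(CPM + 0.5) scale. Slit1, a guidance ligand gene between Cyp2c55 and Pyroxd2, was at -0.73, -0.62 and -0.43. Beyond Pyroxd2, AC124716.2 was at -0.62, -0.75 and -0.14 and the carboxypeptidase gene Cpn1 at -0.76, -0.83 and -0.15. AC124716.2 also varied among the WT libraries, at -0.38, 0.44 and -0.06 in replicates 1 to 3, and its groups overlapped. In AC137605.3, AC124716.2 and Cpn1 replicate 3 was thus nearer to the WT mean than replicates 1 and 2, as for Cyp2c55, A1cf and Pyroxd2 but downward. None of these 4 genes was called, with adjusted p-values from edgeR of 0.290 for AC137605.3, 0.276 for Slit1, 0.313 for AC124716.2 and 0.276 for Cpn1.

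**Figure D3:**
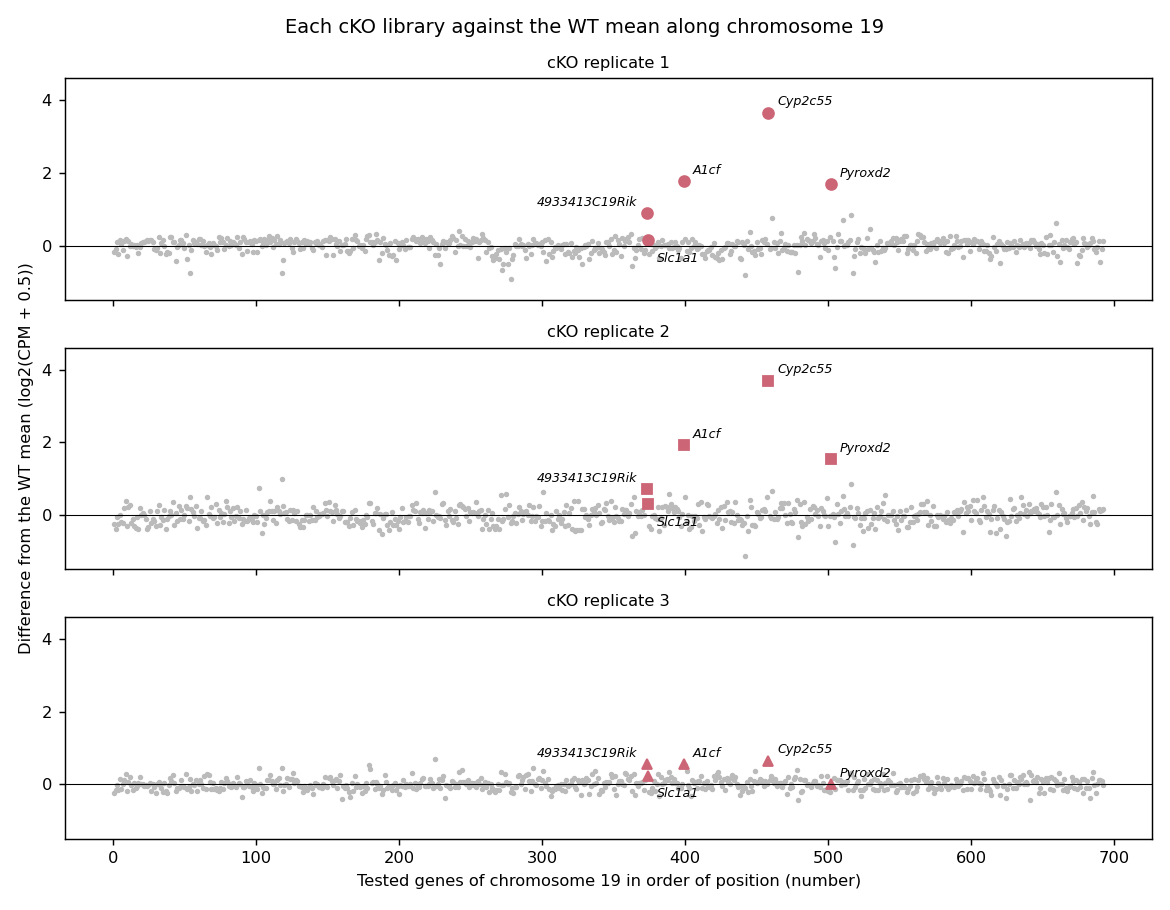
Difference of each cKO library from the WT mean (log2(CPM + 0.5), vertical axis) for the 692 tested genes of chromosome 19 in order of position (horizontal axis), with the 5 genes as large coloured points and the other genes in grey. Cyp2c55, A1cf and Pyroxd2 stand over 1 unit above 0 in cKO replicates 1 and 2 and below that in replicate 3; most grey points lie near 0, with single genes between and beyond the 5 above or below it, such as Cyp2c29 at 0.75 and 0.66 and AC137605.3 at -0.82 and -1.12 in cKO replicates 1 and 2.

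The test was also applied to the other genes of chromosome 19. They are those left after the 5 were picked as high from the same counts, so they are not an unselected set of the chromosome. Of these 687 genes, 0 were called by edgeR, 64 (9.32%) had an unadjusted p under 0.05 with a higher level in cKO and 46 (6.70%) with a lower one, against 7.33% and 6.54% of all tested genes. DESeq2 called 12 of them, and it also called many more of all tested genes than edgeR did. Their median log2 fold change was 0.0047, against 0.0031 over all tested genes, and they ranged from -0.80 to 1.01. The 125 genes between the first and last of the 5 had a median of 0.023, with 0 called, 11 higher and 9 lower at an unadjusted p under 0.05. In that stretch these were 8.80% and 7.20% of the genes.

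The nearest tested genes, 3 on each side of each of the 5, came to 24 further genes. Of these, 0 were called by edgeR, and their median log2 fold change was 0.027. At an unadjusted p under 0.05, 3 were higher (12.5%) and 4 lower (16.7%), against 7.33% and 6.54% of all tested genes. Next to A1cf, the non-coding RNA AC117816.1 begins 1088 bases beyond its end and had 29, 16 and 24 reads in WT replicates 1 to 3 and 36, 41 and 44 in cKO replicates 1 to 3. Its groups did not overlap, in the direction of A1cf, with a log2 fold change of 0.81 and an adjusted p of 0.305 from edgeR, but its reads were not concentrated in cKO replicates 1 and 2. The ceramidase gene Asah2 and the sphingomyelin synthase gene Sgms1, farther on the same side, had log2 fold changes of 0.03 each. On the other side Prkg1, a cGMP-dependent kinase gene, had -0.26 (adjusted p of 0.346, edgeR), Cstf2t 0.04 and the pseudogene Ppp1r2-ps3 -0.07.

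Beside Pyroxd2, Hps1, a subunit gene of a complex for lysosome-related organelles, lies 2329 bases away and had a log2 fold change of 0.03. R3hcc1l had 0.28 (adjusted p of 0.297, edgeR) without overlap of the groups. Loxl4 had 0.02, Hpse2 -0.08, the antisense gene Gm16541 -0.20 and the antisense gene AC124716.2 -0.80, the last with an adjusted p of 0.313 from edgeR. Around 4933413C19Rik and Slc1a1, Rfx3 had -0.13, Pum3 0.13, Plpp6 -0.19 and Cdc37l1 -0.10. None of these neighbours had the size of difference seen at the gene they flank.

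Cyp2c55 lies in the Cyp2c cluster, and its relatives allow a comparison within 1 gene family. The pseudogene Cyp2c52-ps, 3729 bases before it, had a log2 fold change of 0.31 (adjusted p of 0.576, edgeR), and Cyp2c65, 18321 bases after it, had -0.02. Cyp2c66 had 0.06, and, on the far side of Cyp2c52-ps, the chromatin remodelling gene Hells had 0.13 and Tbc1d12 0.07. Of the 15 names listed for other protein-coding Cyp2c genes, 14 matched a gene in the counts. The remaining name, Cyp2c44, matched none, so 15 counts names and not separate genes. In that list 4 genes were tested, with 0 called by edgeR and a median log2 fold change of 0.020. The other 10 in the tables had at most 24 reads over all 6 libraries.

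Cyp2c29 was the relative with the largest difference. It had 0.357, 0.570 and 0.274 CPM in WT replicates 1 to 3 and 1.00, 0.911 and 0.514 CPM in cKO replicates 1 to 3. As at Cyp2c55, replicates 1 and 2 of the cKO group were the high libraries, and replicate 3 lay below the highest WT library, so the groups overlapped. Its log2 fold change was 1.01 (SE 0.31), with an adjusted p of 0.288 from edgeR. Cyp2c29 shared 2.46% of its 75-base stretches with other genes. Cyp2c23, at the far end of the family on this chromosome, had -0.07.

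**Figure D4:**
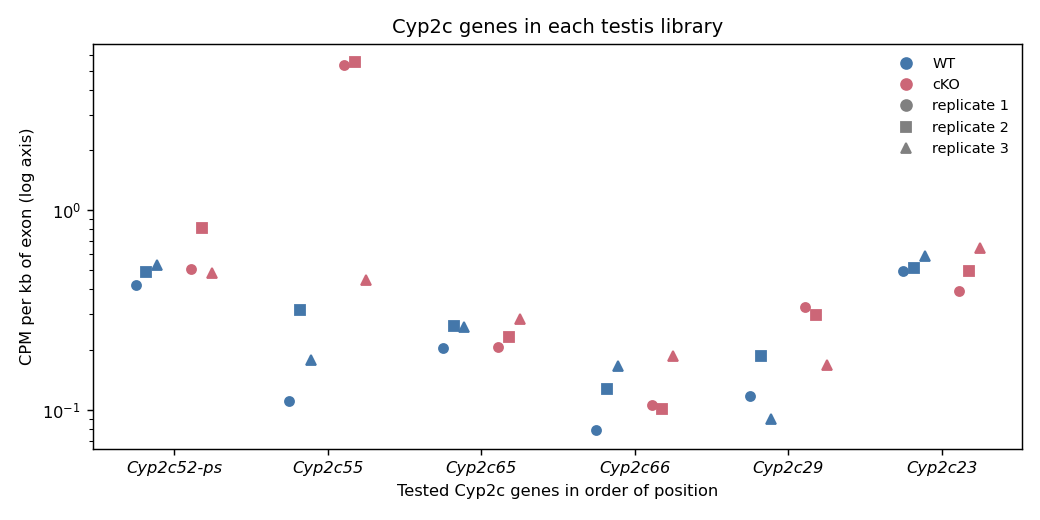
Level of the tested Cyp2c genes in each library, as CPM per kb of exon on a log axis, in order of position on chromosome 19, with WT in blue, cKO in red and circles, squares and triangles for replicates 1, 2 and 3. Cyp2c55 is the gene whose cKO replicates 1 and 2, at 5.37 and 5.50 CPM per kb, are set apart from all other points, and the 2 highest points of Cyp2c29 are the same libraries.

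The genes of the pathways in which the 5 take part were compared by lists. Over all tested genes, 7.33% were higher and 6.54% lower in cKO at an unadjusted p under 0.05. Of the 19 listed genes of the CAR and PXR response, which governs Cyp2c55 in liver, 11 were tested and 0 were called by edgeR, with 1 higher and 2 lower at an unadjusted p under 0.05 and a median log2 fold change of -0.0086. The sulphotransferase gene Sult1e1 had -0.29 (adjusted p of 0.297, edgeR) and the efflux pump gene Abcb1a 0.29 (adjusted p of 0.313, edgeR). The receptor PXR itself, Nr1i2, was at 0.471 ± 0.145 CPM (SD, n = 3) in WT and 0.572 ± 0.120 CPM (SD, n = 3) in cKO, and the groups overlapped. None of the 11 tested genes was called, and Cyp2c55 itself is not in that list. The receptor CAR, Nr1i3, was below the filter and not tested. Nor were Cyp2b9, Cyp2b10, Cyp3a11, Cyp3a13, Cyp1a1, Ugt1a1 and Gsta1 of the list. Of the 19 listed genes, 5 had under 10 reads over all 6 libraries. The list therefore does not show whether the CAR and PXR response as a whole differed.

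For A1cf, 15 names of partners and editing enzymes were listed, of which 14 matched a gene in the counts and 13 were tested. Of these, 0 were called by edgeR, with a median log2 fold change of 0.12. At an unadjusted p under 0.05, 3 were higher (23.1%) and 0 lower, against 7.33% and 6.54% of all tested genes. The splicing factor gene Khsrp had 0.19 (adjusted p of 0.313, edgeR) and the RNA-binding protein gene Celf2 also 0.19 (adjusted p of 0.331, edgeR). Apobec1, the deaminase that A1cf serves, was at 1.13 ± 0.335 CPM (SD, n = 3) in WT and 1.36 ± 0.325 CPM (SD, n = 3) in cKO, with overlap. For Pyroxd2, 14 of 15 listed FAD- or NAD-dependent oxidoreductase genes were tested, 0 were called, and 1, its namesake Pyroxd1, was higher at an unadjusted p under 0.05, with a log2 fold change of 0.17 (adjusted p of 0.352, edgeR). Txnrd3, a thioredoxin reductase gene of the testis, had 0.11. The median of that list was 0.021.

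For Slc1a1, all 18 listed carriers and genes of cysteine and glutathione supply were tested, with 0 called by edgeR, 0 at an unadjusted p under 0.05 in either direction and a median log2 fold change of 0.0049. The cystine carrier gene Slc7a9 had 0.58 (adjusted p of 0.454, edgeR) and glutamine synthetase, Glul, 0.07. DESeq2 called 0 genes of these lists. Among the 7 tested genes of the MSL complex list 0 were called by edgeR. At an unadjusted p under 0.05, 1 was higher, Msl1 at 0.17, and 1 lower, Kat8 at -0.15. Each is 14.3% of the list, against 7.33% higher and 6.54% lower of all tested genes.

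Markers of organs in which Cyp2c55, A1cf and Slc1a1 are best known were summed per library, from lists added after the values had been seen. The 8 liver markers summed to 2.03 to 2.18 CPM in the WT libraries and 1.64 to 2.00 CPM in the cKO libraries. The 8 kidney tubule markers summed to 16.5 to 22.1 CPM in WT and 17.2 to 25.9 CPM in cKO, and the 8 intestinal markers to 4.33 to 4.98 CPM in WT and 3.71 to 4.36 CPM in cKO. The 10 markers of epididymal epithelium, the tissue that adjoins the testis, were below the filter, 3 of them without a read, and summed to 0.391 to 0.462 CPM in WT and 0.286 to 0.651 CPM in cKO. The highest kidney sum was in cKO replicate 1, and the sum in cKO replicate 2 was 17.2 CPM, within the WT range. Most of the kidney sum came from 1 gene, Aqp2, with 19.1 of 22.1 CPM in WT replicate 1 and 22.7 of 25.9 CPM in cKO replicate 1. In none of these 4 lists was the sum above the WT range in both cKO replicates 1 and 2. The part of tissue from these organs in the levels of the 5 genes was not tested.

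Testis markers were present in every library, with the elongating spermatid list at 22416 to 26870 CPM and the Sertoli list at 1569 to 2033 CPM. At an unadjusted p under 0.05, round spermatid markers were lower in cKO for 4 of 10 genes and higher for 0, and macrophage markers lower for 4 of 10 and higher for 1, against 6.54% lower and 7.33% higher of all tested genes, with 0 called by edgeR. Elongating spermatid markers were lower for 2 of 10 and Leydig markers for 2 of 9, myoid markers were lower for 2 and higher for 1 of 8, and Sertoli markers were higher for 2 of 10 and endothelial markers for 2 of 8. The other testis lists had at most 1 such gene in a direction. Their sums were 2358 to 2437 CPM in WT and 2226 to 2322 CPM in cKO for round spermatids, and 431 to 448 CPM in WT and 400.2 to 429 CPM in cKO for macrophages. The part of these shifts in the levels of the 5 genes was not tested.

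The genes whose profile over the 6 libraries is most like each member were found by the distance between log2(CPM + 0.5) values centred on their mean, over all tested genes without the 5. For A1cf they were AC132251.1 at a distance of 1.15, Gm7789 at 1.30 and A2m at 1.38. For Pyroxd2 they were AC132251.1 at 1.06, Cyp2c29 at 1.14 and AC140413.1 at 1.20, and for Cyp2c55 Gm7789 at 2.91, AC132251.1 at 3.22 and Cyp2c29 at 3.33. The distances for Cyp2c55 are longer than those for the other members. The Pearson r of Cyp2c55 over the 6 libraries was 0.738 with Gm7789, 0.973 with AC132251.1 and 0.941 with Cyp2c29. Gm7789, though nearest by distance, was high in every cKO library, at 1.58, 1.47 and 1.76 CPM in replicates 1 to 3. For 4933413C19Rik they were Tpt1-ps4 at 0.248, AC132251.1 at 0.296 and Heyl at 0.343. For Slc1a1, whose level lies below the pseudocount so that its profile is nearly flat on this scale, they were Ap1g1, Hipk1 and 1700125G02Rik.

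Chromosome 19 holds 3.16% of the tested genes. Among the 20 nearest profiles it held 5 for Pyroxd2, 5 for 4933413C19Rik, 4 for A1cf, 4 for Cyp2c55 and 1 for Slc1a1. The 5 genes share the same 6 libraries, so these counts describe 1 pattern seen several times and carry no test. Ranking by Spearman correlation instead gave 3, 3, 1, 0 and 1 in the same order, and a pseudocount of 0.1 CPM gave 4, 2, 3, 3 and 1. The counts thus depended on the measure of likeness, and for Cyp2c55 ran from 0 to 4.

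The most frequent of these genes, AC132251.1, is a long intergenic non-coding RNA at chr19:43920473-43927928, beyond Pyroxd2. It had 4.46, 4.25 and 4.67 CPM in WT replicates 1 to 3 and 8.43, 8.49 and 5.60 CPM in cKO replicates 1 to 3. The order of the cKO libraries is that of Cyp2c55, with replicates 1 and 2 near each other and replicate 3 between them and WT. AC140413.1, a long intergenic non-coding RNA farther along the chromosome at chr19:57497390-57512784, had 3.61, 4.18 and 4.23 CPM in WT and 6.41, 6.42 and 4.30 CPM in cKO, in replicate order. AC138790.1 at chr19:43675178-43677176, named after its values were seen, had 10.9, 9.85 and 8.96 CPM in WT and 16.6, 14.4 and 10.4 CPM in cKO. Each of these 3 genes was higher in cKO replicates 1 and 2 than in the other 4 libraries.

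**Figure D5:**
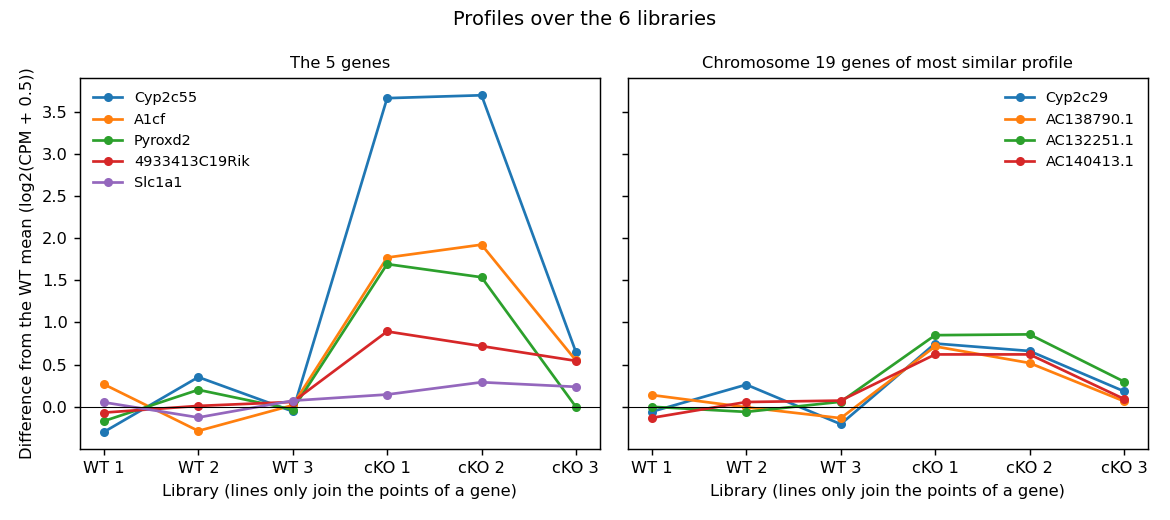
Difference of each library from the WT mean (log2(CPM + 0.5), vertical axis) over the 6 libraries (horizontal axis) for the 5 genes on the left and for 4 other chromosome 19 genes of similar profile on the right; lines only join the points of a gene. Cyp2c55, A1cf and Pyroxd2 are highest at cKO replicates 1 and 2 and nearer to WT at replicate 3, and Cyp2c29, AC138790.1, AC132251.1 and AC140413.1 show the same order with differences below 1 unit.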

How the data were processed

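RNA of 6 testis libraries (3 WT, 3 cKO) was read as single ends of 75 bases. The authors deposited raw counts of reads per gene, with no normalisation, in the layout of STAR's gene counts. The tools STAR, HTSeq and DESeq2 and the build mm10 are named in the submitters' processing notes, and their versions are not given in the sources used here. Lines that name no gene, 14.8% to 16.7% of each library, entered neither library sizes nor tests. Identifiers were matched to GENCODE M21 (52147 of 53700).

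Opposite-strand counts were fitted in edgeR 4.0.16 (R 4.3.3) with TMM scaling, filterByExpr at a minimum count of 10 and a quasi-likelihood F test (cKO over WT, no covariates), with Benjamini-Hochberg adjustment over 21902 genes and a threshold of 0.05. The procedure was tested on simulated data. Standard errors were derived from the F statistic. Each p-value sets the difference between the groups against the spread among mice of a group, estimated in part from all tested genes.

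The 5 genes and the lists were chosen with earlier results of these data known. Further genes are named as the 3 nearest tested genes on each side, the 2 listed genes of lowest p per list and the 3 nearest profiles per member. Alternatives were RLE scaling, library totals, no filter, 10 reads in every library, unstranded counts, a replicate block, robust fitting, DESeq2 1.42.0 and each library left out. Same-numbered libraries of both groups had deviations from their group means that correlated at 0.376, 0.263 and -0.0706. The labels state no pairing of the mice, so the main fit used none and the replicate block is given as an alternative.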

Additional observations from a re-analysis of the deposited data

How the results depend on the processing

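The log2 fold changes of the 5 genes were above 0 under every alternative that gave a value. They ranged from 1.51 to 2.10 for A1cf, 3.85 to 4.73 for Cyp2c55, 1.23 to 1.98 for Pyroxd2, 0.60 to 1.12 for Slc1a1 and 0.23 to 3.55 for 4933413C19Rik, whose lowest value came from the unstranded counts. Calls moved with the setting: A1cf passed the threshold under 6 of 14 alternatives, Cyp2c55 under 5, Pyroxd2 under 3 of 13, 4933413C19Rik under 6 of 12 and Slc1a1 under 0 of 11. Without cKO replicate 3, A1cf, Cyp2c55 and Pyroxd2 were called. They were picked for high counts in the cKO replicates that this setting keeps, so these calls carry no weight as tests. Without cKO replicate 1, A1cf, Cyp2c55 and 4933413C19Rik were called, under a setting that called 628 genes in all.

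Over all genes, 4 were called by edgeR, against 757 with no filter on low counts, 2 in the unstranded counts, 193 with DESeq2 and 1 to 628 with a library left out: 116 without WT replicate 1, 2 without WT replicate 2, 1 without WT replicate 3, 628 without cKO replicate 1, 1 without cKO replicate 2 and 7 without cKO replicate 3. The replicate block, a fit that treats same-numbered libraries as pairs, called 49. On chromosome 19 without the 5 genes, 0 were called, against 34 with no filter, 12 with DESeq2, 2 with the replicate block and 0 to 21 with a library left out. The median of that chromosome, 0.0047, was -0.022 with library totals alone and -0.00067 to 0.020 with a library left out. The listed pathway genes had 0 calls, and 1 with no filter. Of 477 values of 35 other named genes under the alternatives, 473 kept their side of the threshold and 4 values of 3 genes passed it. The cause of these changes was not tested. With 21 and 40 reads per group, the counting interval of the ratio at Slc1a1, 1.09 to 3.37, reaches close to 1.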
